A study of Mus musculus with 28 samples.

Results

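The respiratory chain passes electrons from NADH and succinate to oxygen, and the ATP synthase uses the proton gradient that results. Complex II (succinate dehydrogenase) is built from nuclear genes alone. Complexes III (cytochrome bc1), IV (cytochrome c oxidase) and V (ATP synthase) join nuclear subunits to a core encoded in mtDNA, so their assembly draws on both genomes. Skeletal muscle makes muscle forms of several complex IV subunits in place of the general forms found in most tissues.

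The members described here are the nuclear genes whose symbols name a subunit of complexes II to V, or cytochrome c. The rule for members reads the symbol and no measured value, and takes *Sdha* to *Sdhd*, *Uqcr*, *Cyc1*, *Cycs*, *Cox* followed by 4 to 8, and *Atp5*. This gave 44 of the 12732 genes in the table. *Uqcrc1* and *Atp5g2* would match the rule but were not among those genes, so complexes III and V are not complete here. Complex II had 4 members, complex III 8, complex IV 15 and complex V 16, and *Cycs*, which carries electrons from complex III to complex IV, stood alone. All 44 had a mean of at least 0.5 and entered the tests.

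Total RNA of the tibialis anterior (TA), a fast-twitch muscle of the hindlimb, was sequenced for 14 mice of each genotype, wt and *mfn1,2*. The *mfn1,2* mice carried Myl1-Cre with Mfn1-/flox and Mfn2-/flox, and wt littermates were Mfn1+/flox and Mfn2+/flox, so each wt mouse also held 1 floxed allele of both genes. One parent of all litters was mDendra flox/flox. Myl1-Cre acts in fast-twitch fibers, so slow fibers and non-muscle cells of the tissue keep their floxed copy of the mitofusin genes. By the labels each genotype had 4 mice at 4 weeks, 4 at 6 weeks, 4 at 8 weeks and 2 at 10 weeks. Ages could not be assigned to the columns, and any spread by age is part of the replicate error.

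The table holds normalized values rather than read counts, and its lowest values fell with transcript length (slope -1.06 on log axes over 262 genes), so levels were read as values per length. Its depth is unknown. Library totals were 426029 to 564123 in wt and 326643 to 419290 in *mfn1,2* muscle. Mitochondrially encoded genes made up 49.4% to 71.3% of the total in wt and 24.9% to 35.5% in *mfn1,2* muscle. Libraries were therefore scaled by their median ratio to the geometric mean library, and a change below is a change relative to the other genes. *Mfn1* had a log2 fold change of -2.04 and *Mfn2* one of -0.66, both lower in *mfn1,2* muscle. The libraries split first by genotype when clustered. When the tree was divided into 4, WT6, WT8, WT9 and WT13 stood apart from the other wt libraries and DM8 from the other *mfn1,2* libraries. Results were also computed without these 5 libraries, a choice made after seeing the data.

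Members moved in both directions or stayed near the median gene, and no complex rose or fell as a whole over the members found. Of the 44 members, 11 were higher and 7 lower in *mfn1,2* muscle (adjusted *P* under 0.01 from limma, *n* = 14 per genotype). This is 25% of the members higher and 15.9% lower, where 28.2% of all 10819 genes tested were higher and 24.9% lower. The members' median log2 fold change was 0.047 and that of all genes 0.026. Most changes were small, since 38 of 44 members (86.4%) lay within 0.5 log2 units of 0, against 60% of all genes. The members' log2 fold changes had an SD of 0.448 and those of all genes 0.875. All genes were not matched to the members by level, and their median SD within genotypes was 0.313, against 0.242 for members.

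**Figure D1:**
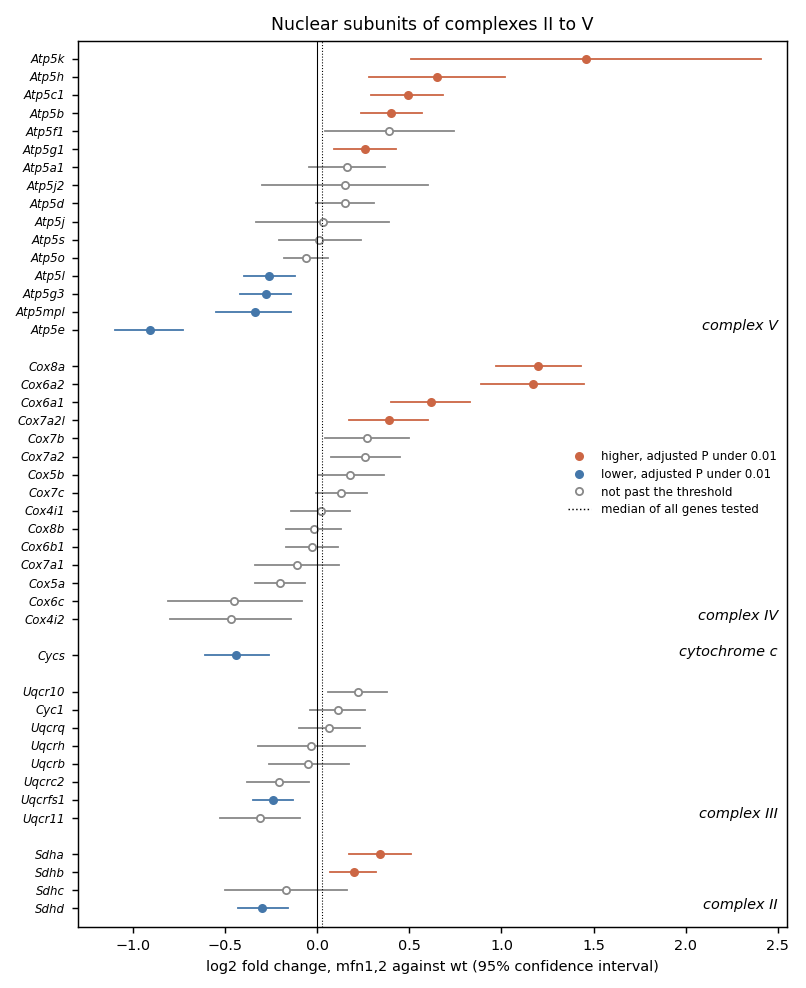
Log2 fold change of each of the 44 members, *mfn1,2* against wt, after scaling to the median of ratios. Points are estimates and bars 95% confidence intervals (*n* = 14 per genotype), filled where adjusted *P* was under 0.01. *Atp5k*, *Cox8a* and *Cox6a2* lie farthest to the right and *Atp5e* farthest to the left at -0.91. With libraries set to the same total, the fold change of *Atp5e* was 0.14 and no member was lower.

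The counts depended on how libraries were scaled, because the choice moved the median of all genes from -0.052 to 1.04 log2 units. In the values as deposited, 35 members were higher and 0 lower by limma (41 and 0 at an unadjusted *P* under 0.05), against 62.3% and 4.95% of all genes. With libraries set to the same total, 43 were higher and 0 lower (43 and 0 unadjusted), against 79.1% and 2.6%. With the same total over the genes outside mtDNA, 18 were higher and 2 lower, against 34.9% and 16.6%. With upper quartile scaling, 8 were higher and 12 lower, against 23.7% and 28.8%. The position of a member relative to the median gene moved little. This follows from the scaling, which moves all genes of a library alike, and is no evidence about the members. Under all 5 scalings 23 members lay above the median gene and 18 below it, and 3 changed side. *Cox8a* lay 1.17 to 1.21 log2 units above the median gene, *Cox6a2* 1.14 to 1.19 above it, and *Atp5e* had values of -0.94 to -0.9. Called higher under all 5 scalings were 8 members: *Cox8a*, *Cox6a2*, *Cox6a1*, *Atp5k*, *Atp5h*, *Atp5c1*, *Atp5b* and *Sdha*. None was called lower under all 5, where few genes could be, since 2.6% of all genes were lower at the same total. Under different scalings 11 members were called in opposite directions. The shares of all genes that would meet these rules over 5 scalings were not computed.

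**Figure D2:**
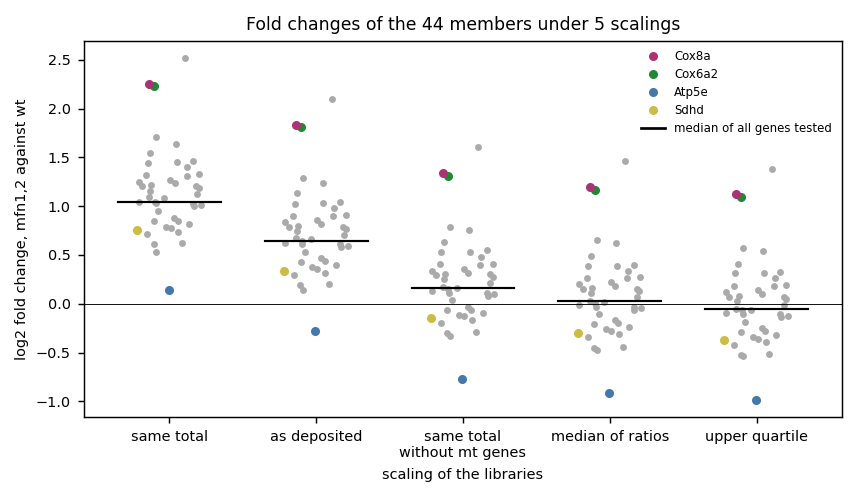
Log2 fold changes (vertical axis) of the 44 members under 5 scalings of the libraries (horizontal axis). Each point is a member and each black line the median of all genes tested, which moves from 1.04 at the same total to -0.052 at the upper quartile. *Cox8a* and *Cox6a2* stay above that line by at least 1.14 and *Atp5e* stays below it, although the fold change of *Atp5e* itself is positive, 0.14, at the same total. A scaling moves all genes of a library alike, so the distances from the line hardly change by construction.

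The values of 3 members did not overlap between genotypes. These were *Cox8a* and *Cox6a2*, above wt in all *mfn1,2* libraries, and *Atp5e*, below wt in all of them. Among all genes 6.15% lay wholly above and 5.08% wholly below. At a Bonferroni-adjusted *P* under 0.01 with a log2 fold change over 1, *Cox8a* and *Cox6a2* were the 2 members that passed, and none passed in the other direction. Of all genes 6.02% passed this rule upward and 5.12% downward.

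The sequences before the start of these genes are shown for *Cox8a* and *Cox8b*, general and muscle form of 1 subunit with unlike changes, and for *Atp5e*, the member with the lowest fold change. They are the 250 bases before the start in RefSeq (GRCm38.p6), 246 for *Atp5e*, whose last bases GENCODE counts to the gene. They run 5′ to 3′ on the gene's strand, and capitals mark matches to the motifs named next. The *Cox8a* stretch is chr19:7217617-7217866 on the minus strand, the *Cox8b* stretch chr7:140900447-140900696 on the minus strand, and the *Atp5e* stretch chr2:174464106-174464351 on the minus strand. GENCODE annotates no gene within any of the 3.
Cox8a: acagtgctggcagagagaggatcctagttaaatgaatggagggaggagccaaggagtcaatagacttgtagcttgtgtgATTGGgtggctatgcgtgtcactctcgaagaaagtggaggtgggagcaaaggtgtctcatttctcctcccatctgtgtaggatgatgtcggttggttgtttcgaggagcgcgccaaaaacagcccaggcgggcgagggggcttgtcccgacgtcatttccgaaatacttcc
Cox8b: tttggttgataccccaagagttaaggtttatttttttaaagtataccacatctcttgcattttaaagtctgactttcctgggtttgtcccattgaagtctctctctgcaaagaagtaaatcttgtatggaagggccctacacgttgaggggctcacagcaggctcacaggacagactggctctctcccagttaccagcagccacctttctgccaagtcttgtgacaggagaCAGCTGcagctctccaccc
Atp5e: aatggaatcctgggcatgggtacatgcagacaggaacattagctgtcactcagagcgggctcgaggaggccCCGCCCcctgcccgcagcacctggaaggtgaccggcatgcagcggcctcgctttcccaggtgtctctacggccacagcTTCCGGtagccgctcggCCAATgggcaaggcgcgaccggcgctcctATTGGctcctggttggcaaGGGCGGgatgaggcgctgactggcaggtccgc

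Motifs were searched on both strands in these windows for the 33 members that matched the RefSeq table, 2 of them through a synonym. *Cox6a2* was not among the 33. A member counted if any of its windows matched, and 3 members had 2 windows. Shares of members and shares of windows are therefore not the same measure. The motifs can overlap in sequence, and the share of all 32851 windows with a match is given beside each. The *Cox8a* stretch held a CCAAT box (CCAAT), found before 19 members (57.6%) and in 33.8% of all windows. The *Cox8b* stretch held an E-box (CAGCTG), found before 2 members (6.06%) and in 13% of all windows. The *Atp5e* stretch held CCAAT boxes, GC boxes (GGGCGG, before 10 members and in 32.7% of all windows) and an ETS motif (CCGGAA). The ETS motif lay before 12 members (36.4%) and in 12% of all windows. Of those 12 members, 2 were higher, 4 lower and 6 not called, where 28.2% of all genes were higher and 24.9% lower. The ERR motif (AAGGTCA) lay before 2 members and in 4.08% of windows, and the ATF4 composite element (TGATGNAA) before 0 and in 3.45%. No match says only that these letters are not in the window.

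The NRF1 motif (GCGCANGCG) lay before the RefSeq start of 8 members (24.2%) and in 5.16% of all windows. Of these 8, *Sdha*, *Atp5c1*, *Atp5k*, *Atp5h* and *Cox6a1* were higher, and *Sdhd*, *Atp5l* and *Cycs* were lower, with the direction of these last turned in the values as deposited and at the same total. Among all genes 28.2% were higher and 24.9% lower, and *Atp5k*, *Atp5h* and *Atp5l* were not called without the 5 libraries. A match describes these letters and not a bound site. The match is shown within 30 bases for *Sdha* and *Sdhd*, subunits of 1 complex with unlike changes, and for *Cycs* and *Cox6a1*, with the motif in capitals. Bases just after the RefSeq start were found in a GENCODE transcript of the gene for *Sdha* and *Cox6a1*, and not for *Sdhd* and *Cycs*. The stretches are chr13:74350319-74350348 for *Sdha*, chr9:50603909-50603938 for *Sdhd*, chr6:50566611-50566640 for *Cycs* and chr5:115349101-115349130 for *Cox6a1*, all on the minus strand. In GENCODE they lie in an exon of *Ccdc127*, of *Timm8b*, of no gene and of the gene model *Gm42903*, in that order. For *Atp5c1* and *Atp5k*, not shown, the 30 bases with the match overlap an exon of the gene itself in GENCODE.
Sdha: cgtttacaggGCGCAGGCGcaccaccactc
Sdhd: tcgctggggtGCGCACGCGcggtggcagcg
Cycs: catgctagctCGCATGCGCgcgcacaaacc
Cox6a1: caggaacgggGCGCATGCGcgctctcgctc

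Within complex II, *Sdha* and *Sdhb* were higher, *Sdhd* was lower, with a positive sign at the same total (0.76) and in the values as deposited (0.34), and *Sdhc* was not called. *Sdha*, the flavoprotein that oxidizes succinate, ranged from 120 to 202 in wt (median 166) and from 143 to 237 in *mfn1,2* muscle (median 205). Its means were 161 ± 26.6 and 203 ± 24.2 (SD, *n* = 14 each), and the log2 fold change, with its standard error (SE), was 0.34 (SE 0.0854, limma adjusted *P* = 0.000972). The lowest *mfn1,2* value was that of DM8, and the 4 wt libraries that cluster apart had the lowest wt values, at 120 to 135. *Sdhb*, the iron-sulfur subunit bound to it, ranged from 90.8 to 136 in wt (median 105) and from 102 to 137 in *mfn1,2* muscle (median 121). Its means were 107 ± 13.6 and 122 ± 8.61 (SD, *n* = 14 each), and the log2 fold change was 0.20 (SE 0.0618, limma adjusted *P* = 0.00658). The groups overlapped over most of their range. This call was lost with the upper quartile (0.12) and in 11 of the 28 fits that left out 1 library (WT5, WT8, WT9, WT12, WT14, DM2, DM7, DM11, DM12, DM13 or DM14), which gave 0.18 to 0.19.

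*Sdhd*, a membrane anchor of complex II, ranged from 54.0 to 76.0 in wt (median 62.9) and from 44.8 to 60.8 in *mfn1,2* muscle (median 52.4). Its means were 64.7 ± 6.9 and 52.7 ± 5.92 (SD, *n* = 14 each), and the log2 fold change was -0.30 (SE 0.0642, limma adjusted *P* = 0.000204). With the values as deposited its log2 fold change was 0.34, and at the same total 0.76. The ratio of 2 genes in a library does not depend on the scaling. *Sdha* over *Sdhd* was 1.7 to 3.26 in wt (median 2.6) and 2.46 to 4.86 in *mfn1,2* muscle (median 3.86). *Sdhb* over *Sdhd* was 1.35 to 1.85 in wt (median 1.7) and 1.76 to 2.86 in *mfn1,2* muscle (median 2.32), and these ratios, chosen after the values were seen, were not tested. *Sdhc*, the other anchor, ranged from 28.9 to 119 in wt (median 46.2) and from 36.2 to 69.9 in *mfn1,2* muscle (median 40.6). Its means were 55.3 ± 23 and 47.2 ± 12.1 (SD, *n* = 14 each), and the log2 fold change of -0.17 (SE 0.162, limma adjusted *P* = 0.36) did not exceed the replicate error.

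Complex III had the narrowest spread of the multi-member complexes, with log2 fold changes from -0.31 to 0.22 and an SD of 0.186 over its 8 members. One member, *Uqcrfs1*, passed the test. *Uqcrfs1* encodes the Rieske iron-sulfur protein, which takes electrons from ubiquinol. It ranged from 118 to 155 in wt (median 132) and from 96.8 to 128 in *mfn1,2* muscle (median 113). Its means were 134 ± 12.5 and 114 ± 8.93 (SD, *n* = 14 each), and the log2 fold change was -0.24 (SE 0.0556, limma adjusted *P* = 0.000418), which was 0.40 in the values as deposited and 0.82 at the same total.

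The small subunit gene *Uqcr11* had means of 51.9 ± 12.1 and 41.3 ± 6.9 (SD, *n* = 14 each), and libraries at 35.4 to 74.6 (median 49.9) and 28.8 to 55.1 (median 42.1). Its log2 fold change of -0.31 (SE 0.107, limma adjusted *P* = 0.012) missed the threshold. It passed with the upper quartile, at -0.39, without the 5 libraries, at -0.4, and in 6 of the 28 fits that left out 1 library. It was called higher in the values as deposited, at 0.32, and at the same total, at 0.74. *Uqcr10*, another small subunit, ranged from 54.5 to 91.0 in wt (median 78.1) and from 69.8 to 100 in *mfn1,2* muscle (median 84.5). Its means were 73.7 ± 12.2 and 85.1 ± 8.74 (SD, *n* = 14 each), and the log2 fold change was 0.22 (SE 0.0786, limma adjusted *P* = 0.0163). *Uqcrc2*, a core protein of the complex, ranged from 64.2 to 120 in wt (median 78.6) and from 58.7 to 83.7 in *mfn1,2* muscle (median 68.9). Its means were 81.1 ± 16.4 and 69.2 ± 6.04 (SD, *n* = 14 each), and the log2 fold change was -0.21 (SE 0.0811, limma adjusted *P* = 0.0253). Neither passed the threshold under this scaling. *Uqcr10* passed it in the values as deposited (0.86), at the same total (1.27), at the same total without mitochondrially encoded genes (0.36), and in 3 of the 28 fits that left out 1 library. *Uqcrc2* passed it with the upper quartile (-0.29), and its sign was positive in the values as deposited (0.43) and at the same total, where it passed (0.85). In wt, *Uqcrc2* was highest in the 4 libraries that cluster apart (89.1 to 120, against 64.2 to 80.8 in the others), and without the 5 libraries its fold change was -0.07.

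The other complex III members, *Cyc1*, *Uqcrq*, *Uqcrh* and *Uqcrb*, had log2 fold changes of 0.11, 0.066, -0.033 and -0.048, and none passed the test. *Cyc1* encodes cytochrome c1, which hands electrons to cytochrome c. *Cycs*, cytochrome c itself, ranged from 51.1 to 95.4 in wt (median 72.5) and from 45.2 to 60.4 in *mfn1,2* muscle (median 52.2). Its log2 fold change was -0.44 (SE 0.0863, limma adjusted *P* = 6.8e-05), with a positive sign in the values as deposited and at the same total. It was -0.58 without the 5 libraries. *Cycs* over *Cyc1* had a median of 1.27 in wt and 0.825 in *mfn1,2* muscle, with overlapping libraries at 0.686 to 1.82 and 0.676 to 0.994. This ratio was chosen after its values were seen and was not tested. About 33.7% of the longest *Cycs* transcript is shared with other genes at 97% identity or more, so reads of its copies may be counted with it.

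Complex IV held *Cox8a* and *Cox6a2*, the rises with the smallest *P* values among the members. Of its 15 members, 4 were higher and 0 lower by limma (7 and 3 at an unadjusted *P* under 0.05), where 28.2% and 24.9% of all genes were. Without the 5 libraries 4 were higher and 2, *Cox6c* and *Cox4i2*, lower, and both of the latter had a positive sign in the values as deposited and at the same total. *Cox8a*, the general form of subunit VIII, ranged from 8.96 to 16.5 in wt (median 11.8) and from 20.1 to 41.1 in *mfn1,2* muscle (median 27.8). All *mfn1,2* libraries lay above all wt libraries. Its mean rose from 12.0 ± 2.14 to 28.1 ± 7.01 (SD, *n* = 14 each). The fit on log2 values, and not the ratio of these means, gave a fold of 2.29, log2 fold change 1.2 (SE 0.113, limma adjusted *P* = 1.57e-10). It was 1.19 without the 5 libraries. This was above 94.8% of all genes tested.

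*Cox8b*, the muscle form of the same subunit, was the far more abundant of the pair, at 291 to 470 in wt (median 358) and 294 to 425 in *mfn1,2* muscle (median 363). Its means were 363 ± 47 and 358 ± 42.9 (SD, *n* = 14 each), and the log2 fold change was -0.017 (SE 0.074, limma adjusted *P* = 0.848, 95% confidence interval -0.17 to 0.13). *Cox8b* over *Cox8a* was 25.3 to 41.2 in wt (median 29.6) and 9.36 to 20.4 in *mfn1,2* muscle (median 12.8), with no overlap. The log2 ratio differed by -1.21 (standard error 0.102, adjusted *P* = 2.5e-05 over 5 pairs, 2-sided permutation test with 100000 resamples). The unadjusted *P* of 1e-05 is the smallest that these permutations can give. In both genotypes *Cox8b* remained the main form at the RNA level.

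*Cox6a2*, the heart and skeletal muscle form of subunit VIa, ranged from 80.2 to 217 in wt (median 160) and from 235 to 421 in *mfn1,2* muscle (median 312). The groups did not overlap. Its means were 145 ± 42.7 and 317 ± 55.4 (SD, *n* = 14 each). The fit on log2 values gave a fold of 2.25, log2 fold change 1.17 (SE 0.138, limma adjusted *P* = 1.53e-08). The 4 wt libraries that cluster apart had the lowest values, at 80.2 to 99.7, against 142 to 217 in the other wt libraries. Without the 5 libraries the log2 fold change was 0.91 and the gene was still called. By level it moved from rank 15 among the 44 members in wt to rank 7 in *mfn1,2* muscle.

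*Cox6a1*, the general form of subunit VIa, was low, at 2.4 to 4.63 in wt (median 3.25) and 2.95 to 6.5 in *mfn1,2* muscle (median 5.32). Its means were 3.35 ± 0.626 and 5.2 ± 0.946 (SD, *n* = 14 each). The fit on log2 values gave a fold of 1.53, log2 fold change 0.62 (SE 0.104, limma adjusted *P* = 6.96e-06). Thus both forms of this subunit rose. *Cox6a2* over *Cox6a1* was 24.8 to 66.5 in wt (median 45.4) and 46.3 to 88.4 in *mfn1,2* muscle (median 61.1), with overlap. The log2 ratio differed by 0.55 (standard error 0.13, adjusted *P* = 0.000267, permutation test), opposite in sign to that of the *Cox8* pair. It was 0.36 without the 5 libraries (adjusted *P* = 0.00095, permutation test). The 4 wt libraries that cluster apart had the lowest wt ratios.

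The muscle and general forms of subunit VIIa did not pass the test singly. *Cox7a1*, the muscle form, had libraries from 139 to 292 in wt (median 191) and from 139 to 215 in *mfn1,2* muscle (median 178). Its means were 196 ± 50.8 and 178 ± 25.2 (SD, *n* = 14 each), and the log2 fold change was -0.11 (SE 0.111, limma adjusted *P* = 0.4). *Cox7a2*, the general form, had libraries from 24.2 to 40.9 (median 34.9) and from 30.2 to 55.6 (median 41.0). Its means were 33.7 ± 4.68 and 40.8 ± 7.62 (SD, *n* = 14 each), and the log2 fold change was 0.26 (SE 0.0912, limma adjusted *P* = 0.0133). *Cox7a1* over *Cox7a2* had a median of 6.05 in wt and 4.25 in *mfn1,2* muscle. The log2 ratio differed by -0.37 (standard error 0.162, adjusted *P* = 0.0279, permutation test), short of the threshold of 0.01, and by -0.57 without the 5 libraries (adjusted *P* = 0.00186, permutation test).

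Of the forms of subunit IV, *Cox4i1* is the general one and *Cox4i2* is known as a form of lung and of low oxygen. *Cox4i1* ranged from 131 to 204 in wt (median 147) and from 122 to 197 in *mfn1,2* muscle (median 155). Its means were 154 ± 20.9 and 156 ± 23.7 (SD, *n* = 14 each), and the log2 fold change was 0.019 (SE 0.0797, limma adjusted *P* = 0.842). *Cox4i2* was the lowest of all 44 members, at 1.21 to 3.41 in wt (median 2.18) and 0.833 to 2.36 in *mfn1,2* muscle (median 1.73). Its means were 2.33 ± 0.779 and 1.62 ± 0.422 (SD, *n* = 14 each), and the log2 fold change was -0.47 (SE 0.163, limma adjusted *P* = 0.013). *Cox4i2* over *Cox4i1* had a median of 0.0143 in wt and 0.0105 in *mfn1,2* muscle. The log2 ratio differed by -0.49 (standard error 0.184, adjusted *P* = 0.0169, permutation test), and by -0.61 without the 5 libraries (adjusted *P* = 0.00872, permutation test).

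**Figure D3:**
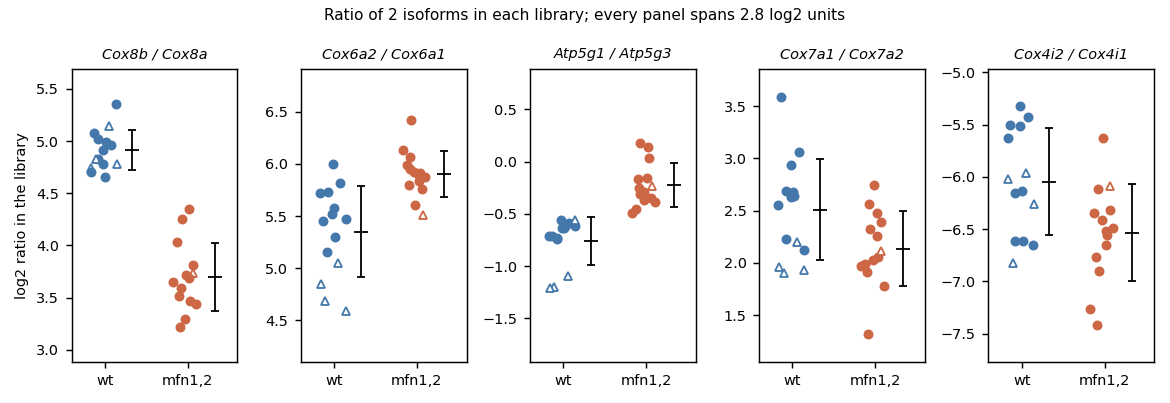
Log2 ratio of the 2 isoforms of a subunit in each library (vertical axis, every panel spanning the same range) by genotype (horizontal axis). Points are libraries, open triangles the 5 that cluster apart, and bars the mean and SD. The genotypes do not overlap for *Cox8b* over *Cox8a* (difference -1.21) or *Atp5g1* over *Atp5g3* (difference 0.54), and overlap for the other pairs.

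The remaining complex IV members were not part of an isoform pair. *Cox7a2l*, which joins complexes III and IV into supercomplexes, had a log2 fold change of 0.39 and was called higher, with libraries at 16.3 to 22.4 in wt and 13 to 37.5 in *mfn1,2* muscle. Its log2 fold change was 0.37 without the 5 libraries, and it was then not called. *Cox7b*, *Cox5b*, *Cox7c*, *Cox6b1*, *Cox5a* and *Cox6c* had log2 fold changes of 0.27, 0.18, 0.13, -0.029, -0.20 and -0.45, and none passed the test. *Cox6c* had an adjusted *P* of 0.0291 from limma. Its 4 wt libraries that cluster apart lay at 262 to 491 and the other wt libraries at 502 to 877, and without the 5 libraries it was called lower at -0.73. Its sign was positive in the values as deposited (0.19) and at the same total (0.61).

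**Figure D4:**
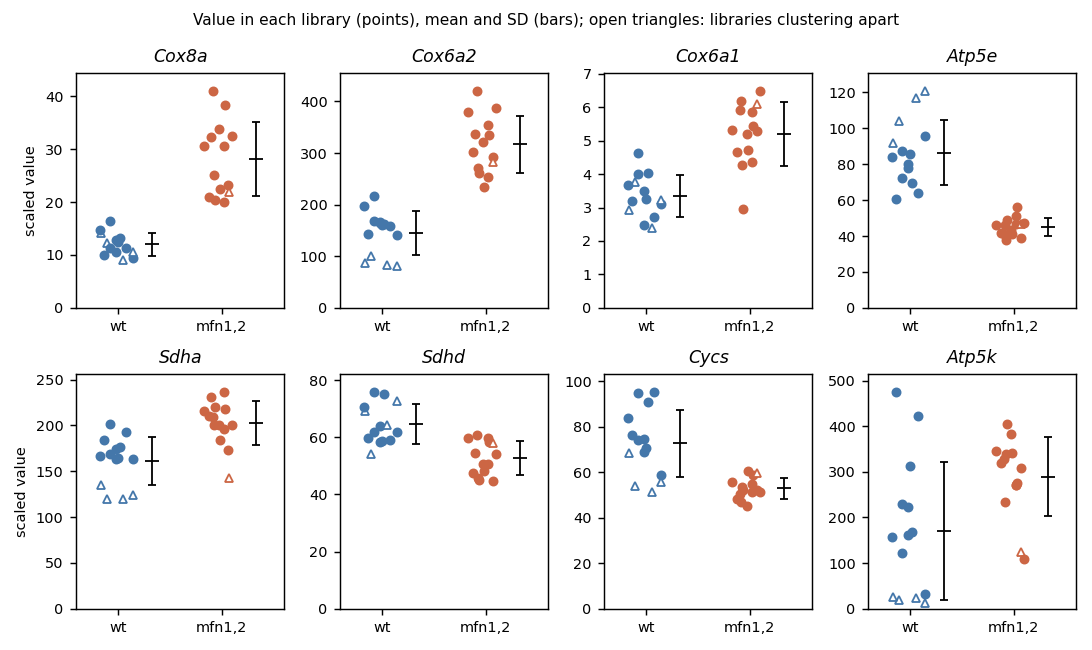
Scaled value (vertical axis, from 0) of 8 members in each library by genotype (horizontal axis). Points are libraries, open triangles the 5 that cluster apart, and bars the mean and SD (*n* = 14 per genotype). *Cox8a* and *Cox6a2* lie higher in every *mfn1,2* library than in any wt library and *Atp5e* lower under this scaling (log2 fold change 0.14 at the same total), while *Atp5k* spans 12.8 to 476 within wt.

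Of the 16 complex V members, 5 were higher and 4 lower by the test, where 28.2% and 24.9% of all genes were. *Atp5b*, the catalytic beta subunit, was the highest of the 44 members in both genotypes, at 775 to 1210 in wt and 874 to 1450 in *mfn1,2* muscle, and its log2 fold change was 0.40. *Atp5c1*, the gamma subunit of the central stalk, ranged from 143 to 278 in wt (median 205) and from 226 to 328 in *mfn1,2* muscle (median 295). Its means were 205 ± 43.3 and 284 ± 34.3 (SD, *n* = 14 each), and the log2 fold change was 0.49 (SE 0.0959, limma adjusted *P* = 5.85e-05). Both genes stayed higher without the 5 libraries, each at 0.37. *Atp5a1*, the alpha subunit, and *Atp5d*, the delta subunit, had log2 fold changes of 0.16 and 0.15 and were not called.

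*Atp5e*, the epsilon subunit at the foot of the same stalk, went the other way. It ranged from 60.8 to 121 in wt (median 84.9) and from 37.6 to 56.2 in *mfn1,2* muscle (median 46.1), without overlap. Its means were 86.5 ± 18.3 and 45.2 ± 5.04 (SD, *n* = 14 each). The fit on log2 values gave a fold of 0.53, log2 fold change -0.91 (SE 0.0906, limma adjusted *P* = 4.53e-10). It was -0.28 in the values as deposited (limma adjusted *P* = 0.135) and 0.14 at the same total. It was -0.78 without the 5 libraries. *Atp5c1* over *Atp5e*, free of the scaling, was 1.31 to 4.36 in wt (median 2.54) and 4.77 to 8.74 in *mfn1,2* muscle (median 6.28), with no overlap. *Atp5b* over *Atp5e* had a median of 11 in wt and 27.7 in *mfn1,2* muscle, with wt libraries at 6.82 to 19.9 and *mfn1,2* libraries at 18.7 to 33.6. *Atp5e* fell from rank 25 to rank 37 of the 44 members by level. These ratios were chosen after the values were seen and were not tested.

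*Atp5g1* and *Atp5g3* encode the same mature c-ring subunit of the proton channel with different targeting sequences. *Atp5g1* ranged from 36.2 to 69.0 in wt (median 48.2) and from 48.5 to 72.3 in *mfn1,2* muscle (median 57.3). Its means were 49.1 ± 8.74 and 58.3 ± 7.38 (SD, *n* = 14 each), and the log2 fold change was 0.26 (SE 0.0833, limma adjusted *P* = 0.00775). *Atp5g3* ranged from 68.8 to 106 in wt (median 81.5) and from 54.7 to 81.7 in *mfn1,2* muscle (median 67.2). Its means were 82.6 ± 10.9 and 68 ± 7.88 (SD, *n* = 14 each), and the log2 fold change was -0.28 (SE 0.07, limma adjusted *P* = 0.000993), which was 0.36 in the values as deposited and 0.78 at the same total. *Atp5g1* over *Atp5g3* was 0.431 to 0.678 in wt (median 0.626) and 0.71 to 1.13 in *mfn1,2* muscle (median 0.829), without overlap. The log2 ratio differed by 0.54 (standard error 0.0836, adjusted *P* = 2.5e-05, permutation test), and by 0.44 without the 5 libraries. About 13.2% of the longest *Atp5g1* transcript is shared with other genes, and the call of *Atp5g1* alone was lost with the upper quartile (0.18) and without the 5 libraries (0.15). It was also lost in 15 of the 28 fits that left out 1 library (WT4, WT5, WT7, WT8, WT9, WT10, WT12, WT13, DM2, DM4, DM5, DM7, DM8, DM11 or DM12), with log2 fold changes no lower than 0.23.

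*Atp5k*, the e subunit, had the largest fold change of all members and the largest error. It ranged from 12.8 to 476 in wt (median 159) and from 109 to 404 in *mfn1,2* muscle (median 314). Its means were 170 ± 150 and 290 ± 86.4 (SD, *n* = 14 each), and the log2 fold change was 1.46 (SE 0.466, limma adjusted *P* = 0.00741, 95% confidence interval 0.51 to 2.41). The 4 wt libraries that cluster apart were at 12.8 to 26.0 and the other 10 at 32.4 to 476. Of those 10, WT5 was at 32.4 and the next lowest, WT14, at 122. WT5 stayed in the fit without the 5 libraries. The call was lost in 13 of the 28 fits that left out 1 library (WT5, WT6, WT8, WT9, WT13, DM1, DM3, DM6, DM7, DM9, DM10, DM13 or DM14), and the 28 fits gave 1.24 to 1.64. Without the 5 libraries the log2 fold change was 0.63 and not called.

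*Atp5h*, the d subunit of the stator, ranged from 94.2 to 438 in wt (median 276) and from 235 to 422 in *mfn1,2* muscle (median 366). Its means were 242 ± 102 and 350 ± 50.3 (SD, *n* = 14 each), and the log2 fold change was 0.65 (SE 0.182, limma adjusted *P* = 0.00267). It was 0.35, and not called, without the 5 libraries. The gene model *Gm10250* is nearly identical over 71.1% of the *Atp5h* transcript, so their reads may be split between them, and it had a log2 fold change of 0.8.

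Of the other complex V members, *Atp5l* (g subunit) and *Atp5mpl* (a small membrane subunit) were lower at -0.26 and -0.34, both with a positive sign in the values as deposited and at the same total. *Atp5l* was not called without the 5 libraries, and 72.2% of its transcript is shared with copies. *Atp5f1* (b subunit), *Atp5j2* (f subunit), *Atp5j* (factor 6), *Atp5s* (coupling factor B) and *Atp5o* (the oligomycin sensitivity protein) were not called, with log2 fold changes of 0.39, 0.15, 0.029, 0.011 and -0.06. In all, 15 of the 44 members share a stretch of at least 75 bases with another gene at 97% identity or more, and 29 do not. *Cox8a*, *Cox6a2*, *Cox6a1*, *Cox8b*, *Atp5e* and *Atp5k* were among the 29.

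**Figure D5:**
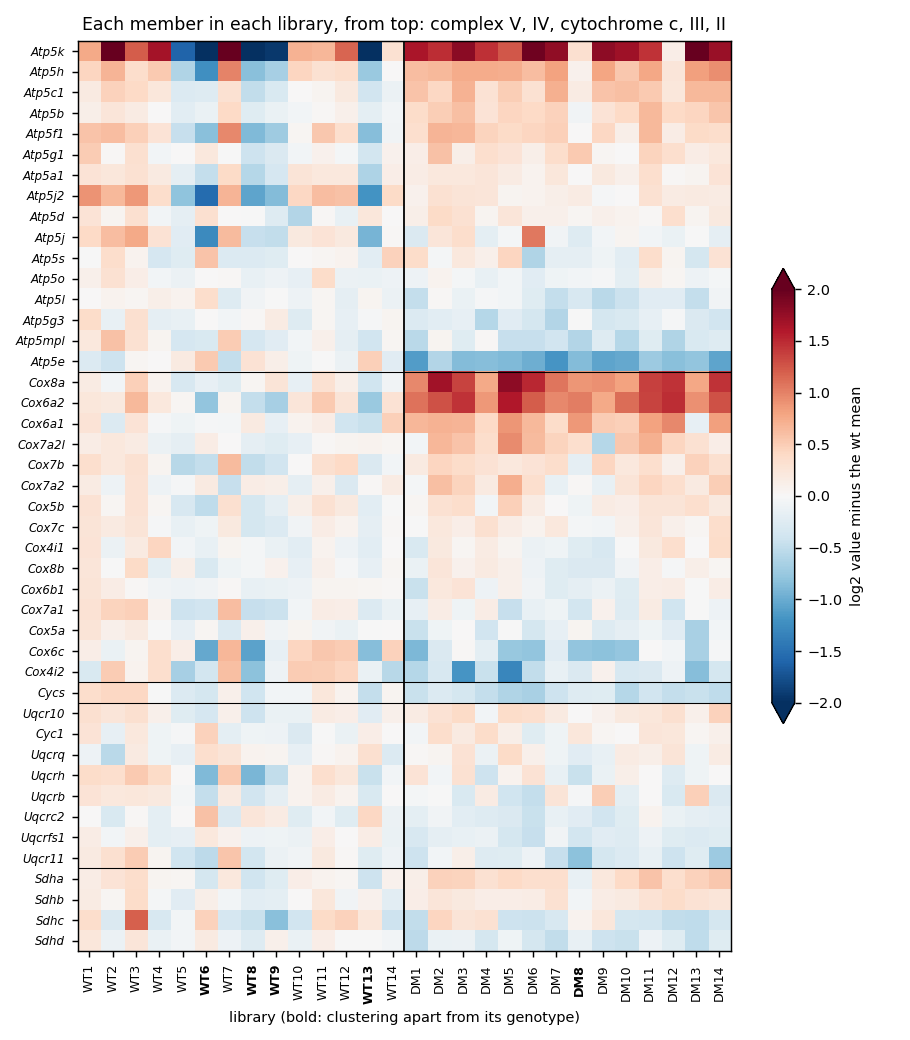
Log2 value of each member minus its wt mean (color, from -2 to 2) by library (horizontal axis, 14 wt then 14 *mfn1,2*) and gene (vertical axis, grouped by complex). The rows of *Cox8a* and *Cox6a2* are red across all *mfn1,2* libraries and that of *Atp5e* blue under this scaling, where its log2 fold change is -0.91 (0.14 at the same total). The 4 wt libraries in bold are blue for *Atp5k*, *Atp5j2*, *Atp5h*, *Cox6c* and *Cox6a2*.

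In the 4 wt libraries that cluster apart, 11 of the 44 members lay below all 10 other wt libraries and 1 above them, against 5.55% and 1.79% of all genes tested. The clusters were formed on all genes tested, members included, so these counts are a description. The median over members of the log2 difference between these libraries and the other wt libraries was -0.3, and over all genes 0.0032. The 11 members were *Atp5k*, *Atp5j2*, *Cox6c*, *Atp5f1*, *Atp5h*, *Uqcrh*, *Atp5j*, *Cox6a2*, *Atp5a1*, *Uqcrb* and *Sdha*, and the largest log2 difference was -3.14, for *Atp5k*. *Cox8a* and *Sdhb* differed little there, at -0.062 and -0.028. Mitochondrially encoded genes made up 51.4% to 56.5% of the total in these 4 wt libraries. The share was 49.4% in WT5, which did not cluster apart, and 62.2% to 71.3% in the remaining wt libraries. Within genotypes, the SD of log2 values ran from 0.125 for *Uqcrfs1* to 1.32 for *Atp5k*, with a median of 0.242 over members and 0.313 over all genes. Without the 5 libraries, 8 members were higher and 10 lower, against 26.5% and 24% of all genes. With and without them, 13 members were called in the same direction, 5 with them alone and 5 without them alone. The 5 lost were *Atp5k*, *Atp5h*, *Atp5g1*, *Cox7a2l* and *Atp5l*, and the 5 gained were *Cox7a2*, higher, and *Cox4i2*, *Cox6c*, *Uqcr11* and *Uqcrh*, lower.

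The order of levels among members was much the same at both ends. *Atp5b*, *Cox6c*, *Atp5a1*, *Uqcrb* and *Cox8b* were the 5 highest in wt, with means of 927, 591, 526, 392 and 363, and were also the 5 highest in *mfn1,2* muscle. Among these 5 in wt, the ranges of 1 SD around the means of neighbours overlapped, other than those of *Atp5b* and *Cox6c*. *Atp5s*, *Cox6a1* and *Cox4i2* were the 3 lowest in wt, with means of 4.66, 3.35 and 2.33, and remained so in *mfn1,2* muscle.

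Of the mtDNA-encoded partners, 2 of 6 were in the table, and both had fold changes far below those of the nuclear members. *mt-Co1*, the catalytic core of complex IV, had a log2 fold change of -2.62 and *mt-Cytb*, the core of complex III, one of -2.9. *mt-Co1* over the geometric mean of the 15 nuclear complex IV members was 134 to 304 in wt (median 198) and 22.3 to 39.8 in *mfn1,2* muscle (median 28.7). *mt-Cytb* over that of the 8 nuclear complex III members was 61.2 to 146 in wt (median 82.3) and 7.96 to 14.6 in *mfn1,2* muscle (median 11.7). Neither ratio overlapped between genotypes, and neither depends on the scaling.

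Assembly factors insert cofactors and join subunits. Of 36 listed, 34 were tested, 10 were higher and 6 lower, where 28.2% and 24.9% of all genes were, and their median log2 fold change was -0.033. Values for these factors are for the median of ratios alone and would shift with the scaling. The 20 factors of complex IV held 7 of the rises. The largest were *Cox20*, a chaperone of the mtDNA-encoded subunit 2, at 0.97, and *Cox17*, a copper chaperone, at 0.87. The lowest were *Ttc19*, a complex III factor, at -0.57 and *Cmc2*, a complex IV factor, at -0.52. Of the 4 complex II factors, 1 was lower. Of 3 related genes, *Atpif1*, the inhibitor of the ATP synthase, was higher at 0.63, whereas *Hccs*, which attaches heme to cytochrome c, and *Ndufa4*, which associates with complex IV, had -0.094 and -0.25 and were not called. *Atpif1* over *Atp5b* was 0.0151 to 0.0315 in wt and 0.0149 to 0.0372 in *mfn1,2* muscle. Without the 5 libraries, 7 of the 34 assembly factors were higher and 7 lower, against 26.5% and 24% of all genes.

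Some markers of other cells and of slow fibers also differed between the genotypes, where 28.2% of all genes were higher and 24.9% lower. These counts and sums are for the median of ratios alone. At the same total 2.6% of all genes were lower, so counts of lower markers would depend on the scaling. Of 7 slow-twitch fiber markers, 5 were higher, and their summed value was 37.7 to 187 in wt and 83.6 to 446 in *mfn1,2* muscle. *Tnni1* and *Myl2* were listed at 0 in at least 1 wt library. In stained TA sections the paper saw no notable change of fiber type, which is a share of fibers and not an RNA level. Of 6 endothelial markers, 5 were lower, with sums of 52.0 to 96.0 and 35.2 to 51.6. Of 5 macrophage markers tested of 6, 4 were lower, with sums of 4.04 to 14.9 and 2.83 to 10.1, and *Cd68* was listed at 0 in at least 1 wt library. Of 6 fibroblast markers, 2 were lower, with sums of 174 to 1420 and 79.2 to 720. Of 7 adipocyte markers, 4 were tested and 1 was higher, with sums of 0.353 to 6.08 and 0.626 to 11.9, and *Ucp1* was at 0 in most libraries. Of 7 skeletal muscle fiber markers, 1 was higher and 4 lower, and their summed value was 18200 to 48400 in wt and 16300 to 28100 in *mfn1,2* muscle. All 7 were in the table, and without the 5 libraries 1 was higher and 6 lower. Without them 4 slow-twitch markers were higher, and the counts of lower endothelial, macrophage and fibroblast markers were 5, 4 and 2. Among all genes 26.5% were then higher and 24% lower. The part of cell makeup in the members' changes was not tested. In bulk tissue, fewer cells of a type and less RNA per cell cannot be told apart.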

How the data were processed

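TA muscle RNA of 28 mice, 14 of each genotype, was prepared by the authors with the SMARTer Stranded Total RNA kit and sequenced as single reads of 75 bases. The tools in the submitters' processing notes are Trim Galore, HISAT2, featureCounts and DESeq2, with no versions, and the build is mm9. What the authors deposited is 1 normalized signal value for each gene and library, and the paper names DESeq2 for its normalized values. The lowest values fell with transcript length, and the median ratios of the libraries ran from 0.484 to 1.54. The values are not whole numbers, and their exact unit is not given in the sources used here, so no count model was run. Whether counting used strand is not given either. Libraries were grouped by genotype from the column names, and 0 columns were unused. At most 0.00813% of values were equal between any 2 libraries.

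Libraries were scaled by the median ratio to the geometric mean library over 11693 genes above 0 in all 28 libraries. limma 3.58.1 (R 4.3.3, lmFit and eBayes with a trend) was fitted on log2(value + 0.1) for 10819 genes with a mean of at least 0.5, so fold changes of low genes are understated. *P* values from limma were adjusted by Benjamini-Hochberg over all genes and called under 0.01. Ratios of 5 isoform pairs were compared by a 2-sided permutation test (100000 resamples), adjusted over the pairs. The labels give 1 mouse per library. Members, lists and pairs were chosen with earlier results of these data known. Full values go to members of isoform pairs and to the 4 members per complex with the largest absolute change. Shared stretches were found with BLAST+ 2.17.0 in GENCODE M21 transcripts. Figures used matplotlib 3.10.9 in Python 3.11.15. On simulated data, 68% of 100 genes changed by 0.5 and 94% of 100 changed by 1 log2 unit were called. Among the unchanged genes of the 10834 tested there were 0 false calls. In the simulation few genes changed, all with a mean of at least 5, and noise was independent between genes and libraries. These rates therefore need not hold for the real data. Results were recomputed under 4 other scalings, with a pseudocount of 1 or 0.01, with a minimum mean of 5 or none, with robust variance, under a Bonferroni rule, and on leaving out each library in turn or the 5 that cluster apart.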

Additional observations from a re-analysis of the deposited data

How the results depend on the processing

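No paired analysis was possible because the columns carry no replicate numbers of the labels. Counts of members moved with the scaling. Higher members numbered 35 and lower members 0 with deposited values. With the same total there were 43 and 0, against 18 and 2 with the same total outside mtDNA, and 2 and 0 at a Bonferroni-adjusted *P* under 0.01 with an absolute log2 fold change over 1. Lower members numbered 12 with the upper quartile. Leaving out 1 library gave 8 to 13 higher and 7 to 10 lower. Among members with full values, signs turned for these log2 fold changes. In the values as deposited they were 0.36 for *Atp5g3*, 0.14 for *Cox4i2*, 0.53 for *Cox7a1*, 0.62 for *Cox8b*, 0.47 for *Sdhc*, 0.34 for *Sdhd*, 0.32 for *Uqcr11*, 0.43 for *Uqcrc2* and 0.40 for *Uqcrfs1*. At the same total they were 0.78, 0.53, 0.95, 1.04, 0.88, 0.76, 0.74, 0.85 and 0.82 for the same genes in that order and 0.14 for *Atp5e*. At the same total without mitochondrially encoded genes they were 0.035 for *Cox7a1* and 0.13 for *Cox8b*, and for *Cox4i1* the value was -0.06 with the upper quartile and -0.015 without the 5 libraries that cluster apart. The shifts under other scalings follow from the scaling itself, which moves all genes of a library alike. Leaving out 1 library gave -0.007 to 0.052 for *Cox4i1* and -0.041 to 0.011 for *Cox8b*, both near 0 throughout. Isoform ratios kept their direction in all fits run. Without the 5 libraries, the *Cox7a1* to *Cox7a2* difference was -0.57 and the *Cox4i2* to *Cox4i1* difference -0.61, both past the threshold. Leaving out 1 library gave -0.42 to -0.29 for *Cox7a1* to *Cox7a2*, -0.56 to -0.42 for *Cox4i2* to *Cox4i1*, 0.5 to 0.6 for *Cox6a2* to *Cox6a1*, -1.26 to -1.18 for *Cox8b* to *Cox8a* and 0.5 to 0.56 for *Atp5g1* to *Atp5g3*. Depth is unknown, so the precision rests on the 14 libraries per genotype.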

Other observations

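The nuclear subunits of complex I, which were not members, had a median log2 fold change of 0.017 over 37 genes. Of these, 4 were higher and 10 lower, where 28.2% and 24.9% of all genes were. Complex I values are for the median of ratios alone and would shift with the scaling. Without the 5 libraries that cluster apart 1 was higher and 15 lower, against 26.5% and 24% of all genes. The largest rises were *Ndufb7*, an accessory subunit, at 0.83 and *Ndufab1*, the mitochondrial acyl carrier protein, at 0.59, and the lowest values were *Ndufb2* at -0.74 and *Ndufc1* at -0.5, both accessory subunits.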
